A study of Mus musculus with 16 samples.

Results

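The CRH and urocortin system is described here from the hypothalamus of weanling mice that were undernourished through lactation (LUN) and of control mice (CON). It was taken as every array probe annotated to Crh, Ucn3, Crhr1, Crhr2 or Crhbp, which gave 7 probes of 25697 and 5 genes of 16593. Crhr1 had 3 probes and each other gene had 1. The related gene Ucn had 1 probe and is given beside the 5 genes, while Ucn2 had no probe. LUN mice were F1 C57BL/6J females aged 21 days whose mothers received, from birth to weaning, 50% of the food that control mothers had eaten on the day before. CON mice were F1 C57BL/6J females of the same age whose mothers ate freely. There were 8 LUN and 8 CON mice with 1 array each, and litters of both groups were kept at 8 pups. Mice are numbered here by the replicate number in the sample titles. The column names of the deposited signals carry different numbers for most mice. The hypothalamus was cut as a block from the whole brain, so that fewer cells of a type and less RNA per cell cannot be told apart. The study's methods give more LUN than CON litters without tying mice to them, so that some CON mice may be littermates, and every test took each mouse as 1 independent sample.

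Corticotropin-releasing hormone, encoded by Crh, is made by neurons of the paraventricular nucleus and drives the release of corticotropin from the pituitary, which in turn drives glucocorticoid secretion by the adrenal gland. It acts through the receptor CRHR1, whereas urocortin 3 is selective for the receptor CRHR2. Both receptors couple mainly to the stimulatory G protein and adenylyl cyclase, and the secreted binding protein encoded by Crhbp holds CRH and urocortin 1 away from the receptors. In the rodent hypothalamus Crhr2 is best known from the ventromedial nucleus, and activation of CRHR2 reduces feeding.

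Of the 5 genes, Crhr2 fell in LUN mice and the other 4 did not pass the test. The Crhr2 level was 75.2% of the CON level, a difference of -0.41 on the log2 scale (SE 0.09), where an offset of 16 was added to each corrected signal and 4 of 8 LUN arrays did not detect it. That size depends on the scale and the normalization. The ratio of mean net signals (signal minus background mean), which were not normalized between arrays, was 0.479. The difference in the authors' log2 values was -0.92. Crhr2 was also among the genes the study named from these samples, so that its direction here is not independent evidence. Crh, Ucn3 and Crhbp had lower means in LUN than in CON mice by 0.16, 0.16 and 0.09 on the log2 scale, none of which passed. In the authors' log2 values the differences of Crh, Ucn3 and Crhbp were -0.61, -0.50 and -0.09, and none passed there. Their ratios of mean net signals, again not normalized between arrays, were 0.604, 0.661 and 0.764, and that of Crhr1 was 0.859. Crhr1 differed by 0.03. The test was limma's moderated test on background-corrected and quantile-normalized log2 values, with Benjamini-Hochberg adjustment over all 14870 probes that were detected on at least 8 arrays (detection p under 0.05), and a gene passed where its adjusted p was under 0.05. In that comparison 15% of all tested probes passed, 8.08% lower and 6.92% higher in LUN mice, so that 1 passing gene among 5 tested is close to the share of all probes. Before adjustment 29.6% of all probes had a p under 0.05, and again Crhr2 alone of the 5 did. On this scale no gene of the system passed with a difference of 1.5-fold or more, as 1.34% of all tested probes did, 0.525% lower and 0.82% higher in LUN mice. In the authors' log2 values Crhr2 did pass with a difference past 1.5-fold (-0.92, adjusted p = 0.0141). For none of the 5 genes were the 2 groups free of overlap, whereas 2.06% of all tested probes had groups that did not overlap, 1.27% with LUN lower.

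The arrays differed as a whole before normalization. The mean signal was 377 ± 23.6 on LUN arrays and 451 ± 35.2 on CON arrays, and the background, estimated from the negative controls through the detection p-values, was 57.5 ± 2.06 on LUN arrays and 61.1 ± 0.940 on CON arrays (SD, n = 8 each). Between 14540 and 15051 probes were detected on LUN arrays and between 14560 and 15384 on CON arrays. Markers of several brain regions also moved with the groups. All 11 thalamus markers were higher in LUN mice, with a mean deviation from each gene's average of 0.32 to 0.90 (log2) on LUN arrays and of -1.43 to 0.79 on CON arrays, where CON 4 (0.79) and CON 8 (0.42) stood apart from the other 6 (-1.43 to -0.34). Of 11 hypothalamus markers 8 were tested and 6 of them were lower in LUN mice, with scores of -0.53 to 0.01 on LUN arrays and of -0.27 to 0.58 on CON arrays, again with CON 4 (-0.26) and CON 8 (-0.27) lowest among CON. Of 9 cerebral cortex and hippocampus markers 5 were tested and 3 were higher in LUN mice, Slc17a7 (2.20), Camk2a (0.62) and Nrn1 (0.57). Tbr1 (0.27, limma adjusted p = 0.260) and Neurod2 (0.12, limma adjusted p = 0.481) did not pass, and Neurod6 was detected on no array. The scores of this list were -0.04 to 0.81 on LUN arrays and -0.80 to 0.17 on CON arrays. Of 6 striatum markers 4 were tested and none passed. Over all tested genes 7.17% were higher and 8.59% lower in LUN mice. Several of the thalamus, hypothalamus and cortex markers were named by the study on these same samples, so that these counts are not independent evidence. Avp, Oxt, Hcrt, Pmch, Trh, Npy and Nkx2-1 were detected on all 16 arrays, whereas Pomc was detected on 0 LUN and 8 CON arrays, Otp and Sim1 on none, and Agrp had no probe. Pomc, which is among the 6 lower hypothalamus markers, thus met the detection filter through CON arrays alone. Both groups lay on both BeadChips, but CON arrays held the first 4 positions of each chip, so that position and group cannot be told apart.

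**Figure D1:**
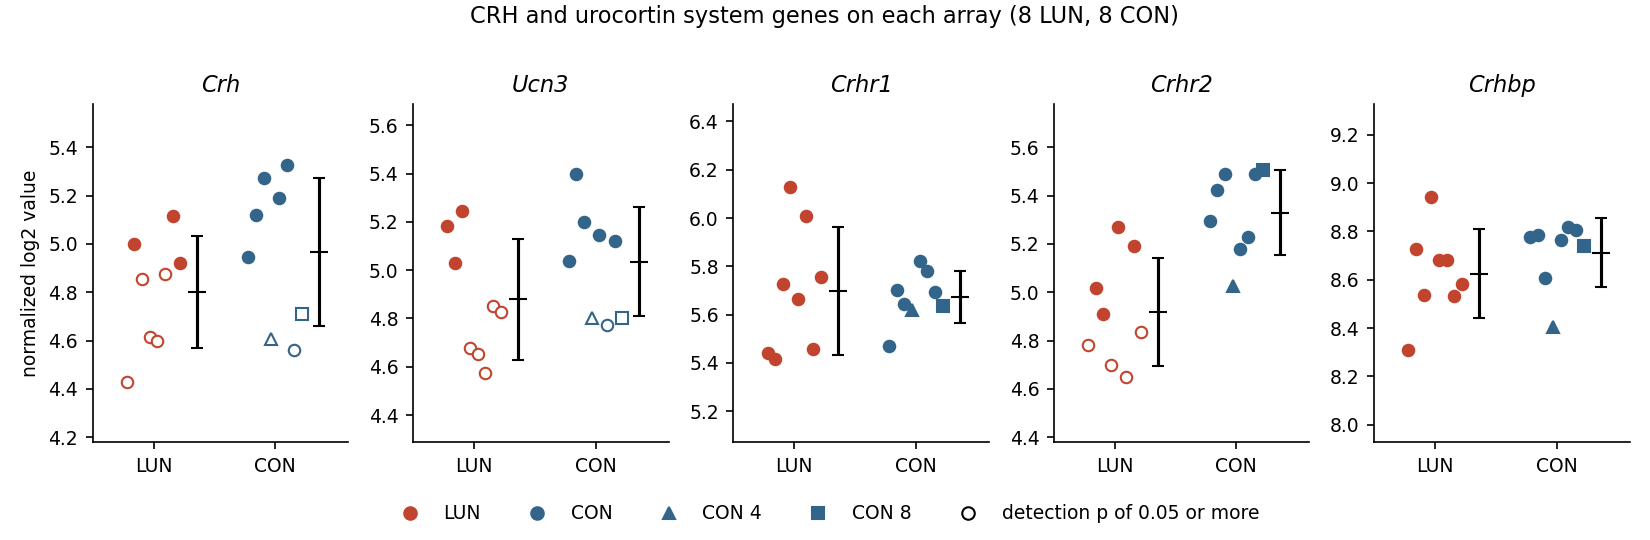
Normalized log2 value (vertical axis, the same span in each panel) of Crh, Ucn3, Crhr1, Crhr2 and Crhbp on each of 8 LUN and 8 CON arrays, 1 point per mouse, with the mean and SD as a bar. Open symbols mark arrays on which the probe was not detected, and 6 of the 8 LUN points of Crhr2 lie below the lowest CON point, while the groups overlap widely for the other 4 genes.

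Among the ligands, Crh lay near the background of the arrays. Its probe (ILMN_1233069) was detected on 3 LUN and 5 CON arrays. The Crh signal, as deposited, was 60.1 to 77.8 (median 68.1) on LUN arrays and 65.9 to 93.5 (median 77.7) on CON arrays, which was 0.108 to 2.89 background SDs above the background of the same array in LUN and 0.686 to 3.61 in CON. After normalization the lowest, median and highest log2 values were 4.43, 4.87 and 5.12 in LUN mice, and 4.56, 5.03 and 5.33 in CON mice. The lowest LUN value was that of LUN 1 and the highest that of LUN 7, and all but LUN 1 lay within the CON range. The mean Crh level was 4.80 ± 0.23 in LUN and 4.97 ± 0.31 in CON mice (SD, n = 8 each), and the difference of -0.16 (95% interval -0.43 to 0.10) did not pass limma's test (adjusted p = 0.401) or the two-sided exact permutation test over all 12870 splits of the mice (p = 0.240). It was -0.26 on BeadChip 1 and -0.07 on BeadChip 2. CON 4 and CON 8 were 7th and 6th highest of 8 in CON, and without both the difference was -0.27 (adjusted p = 0.140).

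Ucn3, the CRHR2-selective ligand known in the rodent brain from the perifornical hypothalamus and the medial amygdala, was measured by 1 probe (ILMN_1238143), which was also detected on 3 LUN and 5 CON arrays. Its signal was 62.1 to 80.3 (median 66.8) on LUN arrays and 71.7 to 91.0 (median 79.8) on CON arrays, or 0.792 to 3.34 background SDs above background in LUN and 1.52 to 3.68 in CON. The normalized log2 values ran over 4.57, 4.84 and 5.25 (lowest, median, highest) in LUN mice and 4.77, 5.08 and 5.40 in CON mice. In LUN mice the 3 detected arrays, LUN 1, LUN 2 and LUN 3, were the 3 highest and lay within the CON range, and 3 LUN mice lay below the lowest CON mouse. Ucn3 averaged 4.88 ± 0.25 in LUN and 5.04 ± 0.23 in CON mice (SD, n = 8 each), a difference of -0.16 (95% interval -0.39 to 0.08) that did not pass (limma adjusted p = 0.367, exact permutation p = 0.209). The difference was -0.08 on BeadChip 1, which held the 3 high LUN mice, and -0.23 on BeadChip 2.

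Ucn encodes urocortin 1, which in the mouse brain is known chiefly from the Edinger-Westphal nucleus of the midbrain. Its probe (ILMN_2834808) was detected on 0 LUN and 2 CON arrays, and it was too rarely detected to enter the test. The 2 arrays were CON 4, with a log2 value of 5.42 and a signal of 91.0, and CON 8, with 5.00 and 76.8. The normalized Ucn values were 4.29 to 4.53 on all 8 LUN arrays, and 4.28 to 4.43 on the other 6 CON arrays. Ucn was thus at background in every LUN mouse and in all CON mice but those 2, the same 2 whose thalamus scores lay among the LUN scores. Whether the 2 findings share a source was not tested.

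**Figure D2:**
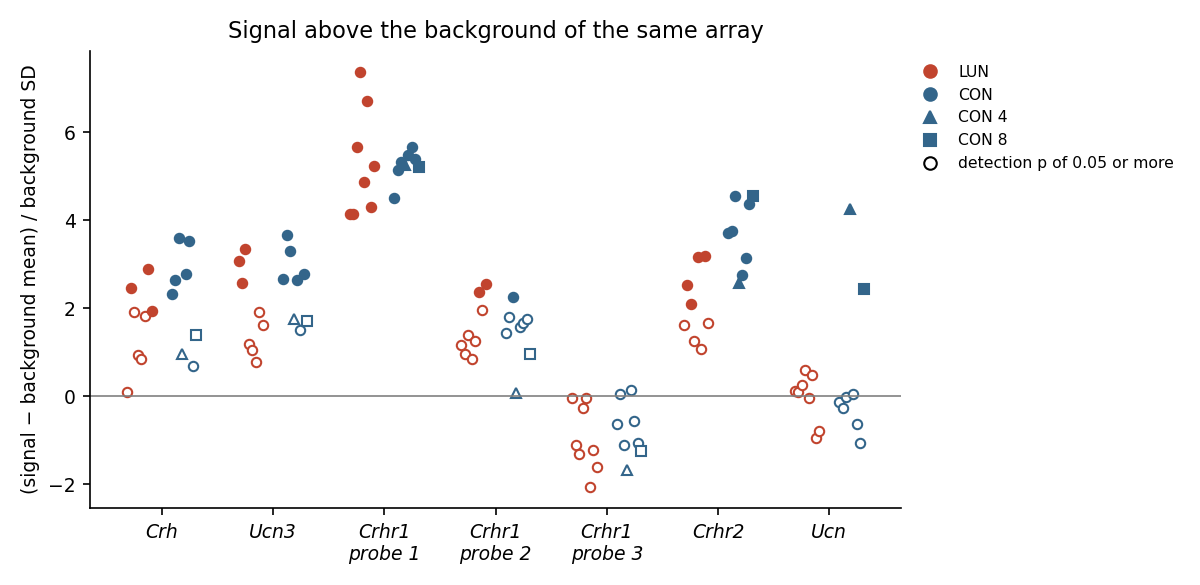
Signal minus the background mean of the same array, in background SDs (vertical axis), for the probes of Crh, Ucn3, Crhr1 (probes 1 to 3), Crhr2 and Ucn on 8 LUN and 8 CON arrays, with open symbols where the probe was not detected and levels not comparable between probes. The LUN points of Crhr2 run over 1.07 to 3.20 and its CON points over 2.57 to 4.56, and the Ucn points of CON 4 and CON 8 stand at 4.26 and 2.45 above all others of that probe.

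Among the receptors, Crhr2 was the gene that changed. It was measured by 1 probe (ILMN_2721406), detected on 4 LUN and all 8 CON arrays. The promoters of both receptor genes are shown because these paralogs share ligands and signalling while only Crhr2 passed the test. They were taken from RefSeq (build GRCm38.p6) as 250 bases before to 50 bases after the annotated start of the gene, at chr6:55132967-55133266 on the minus strand for Crhr2 and at chr11:104132531-104132830 on the plus strand for Crhr1, 5′ to 3′, with a TATAAA match in capitals.
Crhr2: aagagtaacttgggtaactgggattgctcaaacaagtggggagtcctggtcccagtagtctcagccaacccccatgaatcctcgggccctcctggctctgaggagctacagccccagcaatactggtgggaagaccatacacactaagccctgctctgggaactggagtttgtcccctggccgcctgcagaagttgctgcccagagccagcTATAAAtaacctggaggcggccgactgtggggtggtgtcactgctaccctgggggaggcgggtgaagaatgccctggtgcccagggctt
Crhr1: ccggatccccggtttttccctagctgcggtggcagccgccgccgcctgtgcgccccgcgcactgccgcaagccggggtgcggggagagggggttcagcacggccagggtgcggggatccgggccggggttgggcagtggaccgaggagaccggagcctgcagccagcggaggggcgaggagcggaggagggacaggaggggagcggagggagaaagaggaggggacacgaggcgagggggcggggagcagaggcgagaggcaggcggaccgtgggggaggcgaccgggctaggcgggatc
The Crhr2 window held 59% G and C with 5 CpG dinucleotides, and the TATAAA match began 39 bases before the start. The Crhr1 window held 75% G and C with 31 CpG dinucleotides and no match to TATAAA. The median over all 32851 promoters of that table was 52.7% G and C, and 13.6% of them held TATAAA on either strand, as did Crhbp and not Ucn3. Windows were also searched on both strands for the full cAMP-response element TGACGTCA (1.79% of all promoters) and for the glucocorticoid-response half-site AGAACA (19%). Among Ucn3, Crhr1, Crhr2, Crhbp and Ucn only the Ucn window held either, and it held both. A match is only these letters in this window. The table held no promoter of Crh or Ucn2, so neither was searched. For each gene searched it gives 1 start, and the array does not tell which start a transcript came from.

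The Crhr2 signal was 63.9, 69.4 and 78.2 (lowest, median, highest) on LUN arrays and 79.1, 86.2 and 101 on CON arrays. After subtraction of the background mean of the array it was 6.74 to 19.9 in LUN and 18.0 to 38.3 in CON. The ratio of these mean net signals, without normalization between arrays, was 0.479. In normalized log2 values, LUN 1 to LUN 8 had 4.78, 5.02, 4.91, 4.70, 5.27, 4.65, 5.19 and 4.84. CON 1 to CON 8 had 5.29, 5.42, 5.49, 5.03, 5.18, 5.23, 5.49 and 5.51. All 8 LUN mice lay below the CON median of 5.36, 6 of them lay below the lowest CON mouse (CON 4), and LUN 5 and LUN 7 lay within the CON range, so that the groups overlapped by these 2 mice. The 4 LUN mice without detection were LUN 1, LUN 4, LUN 6 and LUN 8, which were also the 4 lowest.

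The Crhr2 means were 4.92 ± 0.22 in LUN and 5.33 ± 0.18 in CON mice (SD, n = 8 each), a difference of -0.41 with a 95% interval of -0.61 to -0.21. The adjusted p was 0.00772 by limma and the two-sided exact permutation p was 0.00233. By p-value the probe ranked 788th of 14870, within the first 5.30%, and 1.70% of tested probes had a more negative difference. It was -0.46 on BeadChip 1 and -0.36 on BeadChip 2, and with the BeadChip as a block the adjusted p was 0.00882. With each undetected value raised to the lowest detected value of its array, a setting chosen after the data were seen, the difference was -0.33 (SE 0.08, adjusted p = 0.00904). Its size on the log2 scale depended on the treatment of background, since it was -0.19 with signals as given and -0.92 in the authors' log2 values, while it passed in each.

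Regional markers stood beside the Crhr2 difference as follows. Without CON 4 and CON 8, whose thalamus scores were as high as those of LUN mice, the difference was -0.43 (adjusted p = 0.00528). Of these 2 arrays CON 8 had the highest Crhr2 value of its group and CON 4 the lowest. Of the 5 ventromedial nucleus markers only 2 were tested, Adcyap1 (-0.19, adjusted p = 0.264) and Gda (-0.09, adjusted p = 0.764), and neither passed. Adcyap1 did pass under median scaling (-0.31, adjusted p = 0.0332), where 2897 of all 10244 tested genes were lower. Nr5a1, which defines that nucleus, was detected on at most 1 array. The ventromedial score was -0.29 to 0.10 on LUN arrays and -0.19 to 0.24 on CON arrays. Choroid plexus, which in the rat also carries a Crhr2 transcript, had 4 of 8 markers tested, of which none passed, with scores of -0.39 to 2.09 on LUN arrays and -0.78 to 0.40 on CON arrays. The 2 LUN mice with the highest choroid plexus scores were LUN 7 (2.09) and LUN 1 (0.97), with Crhr2 values of 5.19 and 4.78. The part of regional composition in the Crhr2 difference was not tested.

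**Figure D3:**
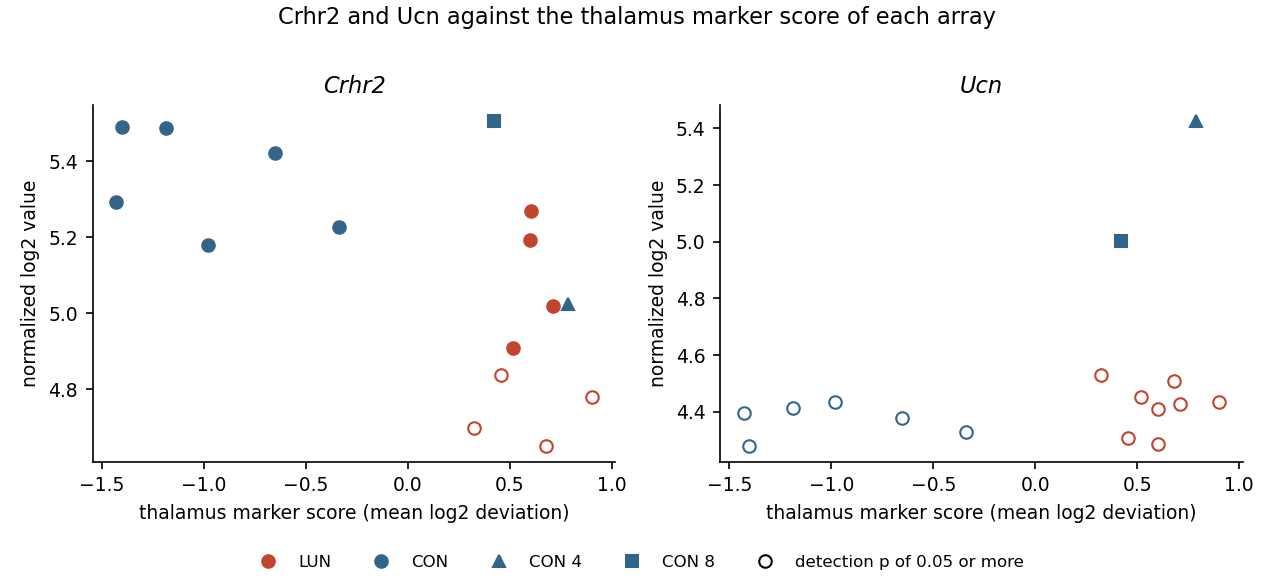
Normalized log2 value of Crhr2 and of Ucn (vertical axes) against the thalamus marker score of the same array, the mean log2 deviation of 11 marker genes (horizontal axes), for 8 LUN and 8 CON arrays, with open symbols where the probe was not detected. LUN scores lie between 0.32 and 0.90, CON 8 joins the highest Crhr2 value (5.51) with a score of 0.42, and the 2 detected Ucn values are those of CON 4 and CON 8.

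Crhr1, the receptor of CRH on pituitary corticotropes and on many forebrain neurons, was measured by 3 probes of unlike sensitivity. The brightest (ILMN_2744710) was detected on all 16 arrays, at 4.14 to 7.38 background SDs above background in LUN and 4.52 to 5.68 in CON. Its lowest, median and highest log2 values were 5.41, 5.70 and 6.13 in LUN mice and 5.47, 5.67 and 5.82 in CON mice. LUN mice lay on both sides of the CON range, 3 below the lowest CON mouse and 2 above the highest (LUN 4 and LUN 6), so that the group means were close while the spread was wider in LUN. The means were 5.70 ± 0.26 in LUN and 5.67 ± 0.11 in CON mice (SD, n = 8 each), with a difference of 0.03 (95% interval -0.17 to 0.23, limma adjusted p = 0.878, exact permutation p = 0.778). The sign of this difference turned under median scaling (-0.0034) and on BeadChip 2 alone (-0.01). The second probe (ILMN_2668221) was detected on 2 LUN and 1 CON arrays, and its values of 4.59 to 5.12 in LUN and 4.43 to 4.93 in CON mice differed by 0.04 (exact permutation p = 0.701). The third (ILMN_2714849) was detected on no array of either group, and gives no level.

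Crhbp was the gene of the system most clearly above background. Its probe (ILMN_1231710) was detected on all 16 arrays, with a signal of 343 to 470 (median 395) on LUN arrays and 402 to 564 (median 516) on CON arrays, or 44.3 to 66.5 background SDs above background in LUN and 48.6 to 66.4 in CON. After normalization the lowest, median and highest log2 values were 8.31, 8.63 and 8.94 in LUN mice and 8.40, 8.77 and 8.82 in CON mice. In LUN mice 7 of 8 lay below the CON median, but LUN 4 had the highest value of all 16, and CON 4 lay within the lower part of the LUN range. Crhbp averaged 8.62 ± 0.18 in LUN and 8.71 ± 0.14 in CON mice (SD, n = 8 each), and the difference of -0.09 (95% interval -0.25 to 0.08) did not pass (limma adjusted p = 0.490, exact permutation p = 0.301). It was -0.01 on BeadChip 1 and -0.16 on BeadChip 2. Under median scaling the Crhbp difference was -0.22 (adjusted p = 0.0568), with a median of -0.09 over all tested probes. Without normalization between arrays Crhbp was lower by a larger amount, -0.37 (adjusted p = 0.00265), in a setting where the median of all tested probes was -0.25.

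**Figure D4:**
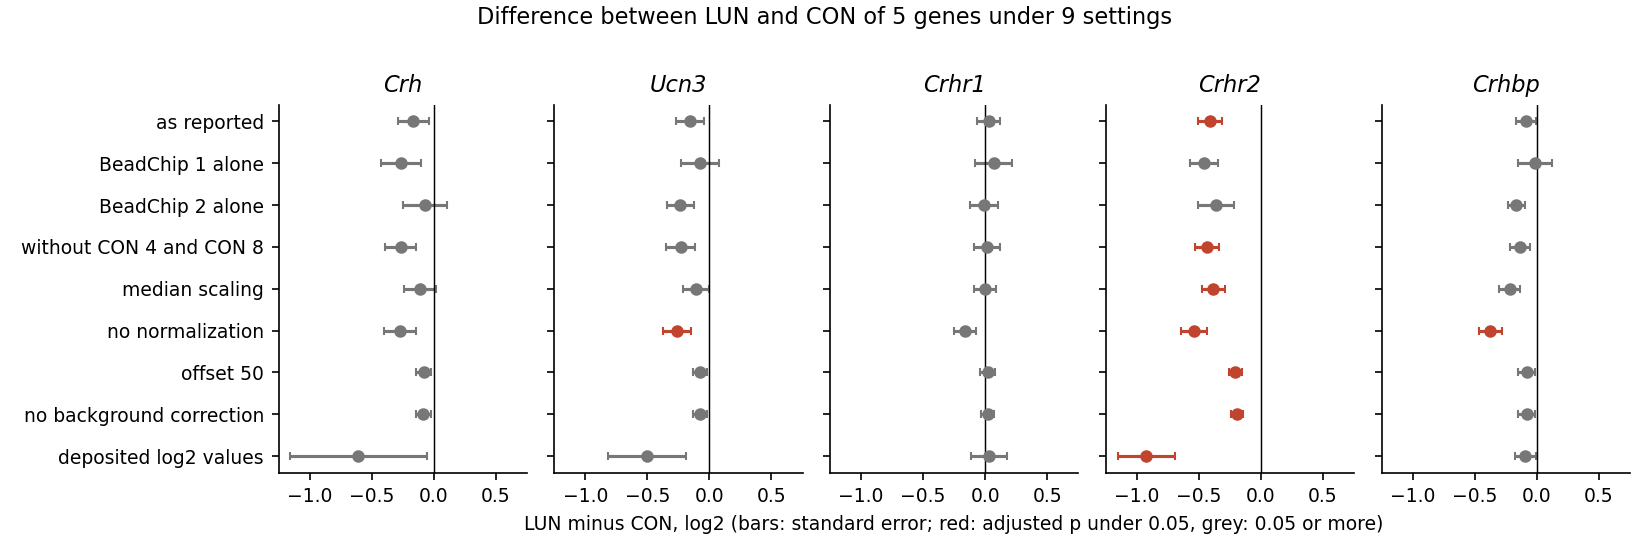
Difference between LUN and CON on the log2 scale (horizontal axes, LUN minus CON) of the 5 genes as reported and under 8 other settings (rows), with the standard error as bars and red where the adjusted p was under 0.05. Crhr2 is red in every setting shown except on either BeadChip alone (-0.46 and -0.36), and Ucn3 (-0.26) and Crhbp (-0.37) are red only without normalization between arrays.

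Set side by side within arrays, the change of Crhr2 was -0.44 relative to Crhr1, -0.32 relative to Crhbp, -0.25 relative to Crh and -0.25 relative to Ucn3 (log2). Crhr2 was singled out for having passed, so these are a description with no test, and whether its response differed from those of the other genes was not tested.

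Levels of the 5 genes were then compared across mice within each group. Of 10 pairs of genes 4 correlated positively in LUN and 8 in CON mice, and Pearson's r ran over -0.63 (Ucn3 with Crhbp in LUN) to 0.65 (Crhr1 with Crhbp in LUN). Over 40320 pairings of the 8 mice none of the 20 relations had an exact permutation p under 0.05 by r or by rho, and the lowest adjusted p of r was 0.576. The strongest, Crhr1 with Crhbp in LUN, had r = 0.65 (exact permutation p = 0.0773) and rho = 0.43 (exact permutation p = 0.299), and without the 2 mice farthest from the median of Crhr1 r was 0.19. The genes whose pattern over the 16 arrays was most like each member, after the group means were subtracted, are given as a description. They were Sf3a3 (r = 0.84), Dtwd1 (0.83) and Phb2 (0.80) for Crh. For Ucn3 they were Naca (0.92), Oprl1 (0.90), which encodes the nociceptin receptor, and Ginm1 (0.86). For Crhr1 they were Dap3 (0.86), Tmem147 (0.85) and Sbk1 (0.82), and for Crhbp Matk (0.87), Plppr5 (0.83) and Cd86 (0.83). For Crhr2 they were Mrps5 (0.81), Mcfd2 (0.76) and Slc25a11 (0.75), of which Mcfd2 fell in LUN mice (-0.17, adjusted p = 0.0491). All arrays entered these values, and near background they share the noise of each array.

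Genes around the 5 members were read from 4 lists, each with the share over all tested genes beside it, where 7.17% were higher and 8.59% lower in LUN mice and the median difference was -0.01. Of the enzymes and chaperones that mature peptide precursors 3 of 6 were tested. Pcsk1n, which encodes the proSAAS inhibitor of a prohormone convertase, fell by 0.25 (SE 0.06, adjusted p = 0.0109), while Pam (0.14), which amidates peptides such as CRH and the urocortins, and Scg5 (0.11) did not pass. The convertase gene Pcsk1 was detected on no array.

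Downstream of the receptors, 24 of 30 coupling genes were tested, 3 were higher and 2 lower in LUN mice, and their median difference was 0.02. The 3 that rose were adenylyl cyclases, the enzymes that make cAMP. Adcy1, which the study also named from these samples, averaged 7.87 ± 0.18 in LUN and 7.07 ± 0.55 in CON mice (SD, n = 8 each), a difference of 0.80 (adjusted p = 0.00742). Adcy9 averaged 6.85 ± 0.30 in LUN and 6.38 ± 0.32 in CON mice, with a difference of 0.46 (adjusted p = 0.0337). Adcy8 rose by 0.30 (adjusted p = 0.00650) and, unlike Adcy1 and Adcy9, did not pass under median scaling (adjusted p = 0.0754). The cyclase gene Adcy4, which was not in the list, had a probe that was higher as well (0.38, adjusted p = 0.00249). It was named with its result known and is no further support, and 6.92% of all tested probes were higher in LUN mice. Crtc3, a coactivator of CREB, fell by 0.36 (adjusted p = 0.0317), and Prkar1b, a regulatory subunit of protein kinase A, fell by 0.17 (adjusted p = 0.0268). Gnas, which encodes the stimulatory G protein subunit, differed by -0.21 and did not pass (adjusted p = 0.0790), but under median scaling it did (-0.35, adjusted p = 0.00453). The cyclases Adcy2 (-0.16), Adcy6 (0.06) and Adcy7 (0.06) did not pass, and of these Adcy2 was lower under median scaling (-0.30, adjusted p = 0.00750). The 11 thalamus markers and 3 of 5 tested cortex and hippocampus markers given above were also higher in LUN mice. The part of either in these values was not tested. Under median scaling, where the median difference over all tested genes was -0.10, the list had 2 genes higher and 8 lower. In that setting 350 of all 10244 tested genes were higher and 2897 lower.

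Of 9 genes known for the specification of Crh neurons or for Crh transcription 4 were tested. Ncoa1, a coactivator of steroid receptors, rose by 0.24 (SE 0.06, adjusted p = 0.0112), but not under median scaling (0.11, adjusted p = 0.243). Nr3c1, the glucocorticoid receptor through which Crh is repressed, averaged 6.22 ± 0.19 in LUN and 6.05 ± 0.31 in CON mice (SD, n = 8 each) and did not pass (0.17, adjusted p = 0.343). The neuronal transcription factor genes Arnt2 (-0.02) and Pou3f2 (0.00) also did not pass. Sim1, Otp, Nr4a1 and Rest were detected on no array.

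Peptides that share nuclei or targets with Crh included 5 that fell. Of 10 paraventricular and pituitary-adrenal peptide and receptor genes 7 were tested, 0 were higher and 5 lower in LUN mice, and their median difference was -0.76, or -0.62 with Pomc at its bound. Several of these genes were named by the study on these same samples, so that their count is not independent evidence. Oxt, encoding oxytocin, averaged 9.63 ± 0.26 in LUN and 10.52 ± 0.40 in CON mice and fell by 0.89 (SE 0.15, adjusted p = 0.00137). Avp, encoding vasopressin, which acts with CRH on corticotropes, averaged 10.07 ± 0.36 in LUN and 10.83 ± 0.49 in CON mice and fell by 0.76 (SE 0.19, adjusted p = 0.0130). Cartpt, whose CART peptides reduce feeding, fell by 0.78 (SE 0.07, adjusted p = 5.9e-06). Trh, encoding the releasing hormone of the thyroid axis, fell by 0.61 (SE 0.14, adjusted p = 0.00842). Pomc, the precursor of corticotropin and melanocortins, was not detected on any LUN array and met the detection filter through CON arrays alone. It was at least 1.53-fold lower in LUN than in CON mice, a bound set by the lowest detected values of the LUN arrays. The adjusted p of 0.000326 by limma belongs to its measured difference of -0.96, which uses undetected LUN values. Its place among the 5 lower genes thus leans on the filter and is not further support. Of 9 pituitary markers only Cga, the shared subunit of pituitary glycoprotein hormones, was tested (-0.82, adjusted p = 0.0514), and it passed under median scaling (-0.87, adjusted p = 0.0196) and without CON 4 and CON 8 (-1.15). The somatostatin gene Sst (-0.01, adjusted p = 0.966) and the vasopressin receptor gene Avpr1a (-0.10, adjusted p = 0.447) did not pass, though Avpr1a did under median scaling (-0.22, adjusted p = 0.0456). In that setting 2897 of all 10244 tested genes were lower. The hypothalamus score, which includes Avp, Oxt, Trh and Pomc, ran lower on LUN arrays as given above, and the part of it and of Cga in the list's values was not tested. Without CON 4 and CON 8 the counts of this list were again 0 higher and 5 lower.

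**Figure D5:**
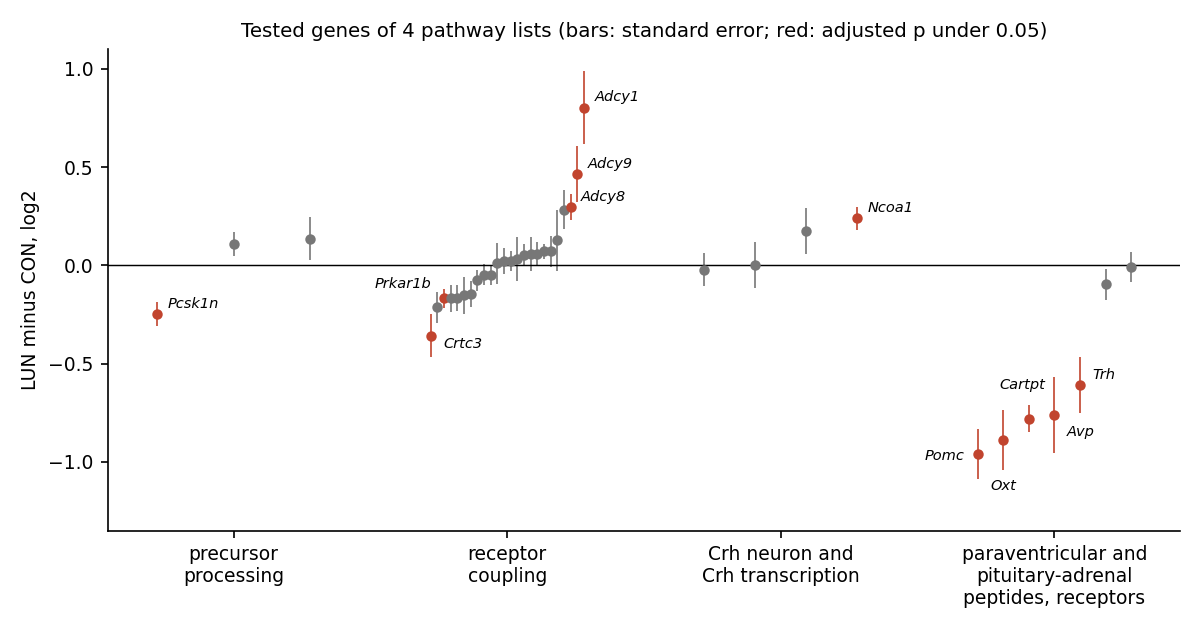
Difference between LUN and CON on the log2 scale (vertical axis, LUN minus CON) of each tested gene in 4 lists (horizontal axis), with the standard error as bars and genes with an adjusted p under 0.05 in red and named. The 3 adenylyl cyclases in red lie at 0.30 to 0.80, while Adcy2 (-0.16), Adcy6 (0.06) and Adcy7 (0.06) did not pass. The 5 peptide genes in red lie at -0.96 to -0.61, where the Pomc point is its measured difference although no LUN array detected it.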

How the data were processed

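The probes described and the gene lists were chosen with earlier results of these data known. The authors deposited intensity values, the mean bead signal per probe from GenomeStudio (version not given in the sources used here), neither background-subtracted nor normalized, for Illumina MouseRef-8 v2 arrays of total RNA. The detection p-values deposited by the authors compare each signal with the negative controls of its array. The log2 values deposited by the authors were quantile-normalized and centred on each probe's median, and were used as an alternative. Signals were background-corrected from the detection p-values (normexp, offset 16), quantile-normalized and log2-transformed with limma 3.58.1 in R 4.3.3. Of 25697 probes 23978 had 1 gene symbol, updated through RefSeq, and 1719 had none or several. The 14870 probes detected (p under 0.05) on at least 8 of 16 arrays were fitted with lmFit and eBayes on all arrays without covariates, with Benjamini-Hochberg adjustment. Lists used the brightest tested probe per gene (10244 genes). A gene detected on no array of a group was given as a bound against the lowest detected value of each array. Named from the lists were genes past adjusted p 0.05, at most 4 by size, with exceptions named for their role, and for each member the 3 most like genes. The fit was tested on simulated data. The number of arrays limits the precision.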

Additional observations from a re-analysis of the deposited data

How the results depend on the processing

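Crhr2 kept its direction and its side of the threshold under every alternative but 2. On BeadChip 1 alone it was -0.46 (adjusted p = 0.116) and on BeadChip 2 alone -0.36 (adjusted p = 0.204), each with fewer mice, and detection on all 16 arrays gave no value. Without each mouse in turn it was -0.46 to -0.37 (adjusted p = 0.00319 to 0.0175). Without normalization between arrays, Ucn3 (-0.26, adjusted p = 0.0490) and Crhbp (-0.37, adjusted p = 0.00265) passed, and under median scaling Crhbp was -0.22 (adjusted p = 0.0568). Crhr1 changed sign under median scaling (-0.0034), without normalization (-0.16) and on BeadChip 2 alone (-0.011), and its probe ILMN_2714849, detected on no array, gave no value. Without each mouse in turn Crhr1 was -0.033 to 0.069, below 0 without LUN 4 (-0.033), LUN 6 (-0.016) or CON 1 (-0.00031). The cause was not tested. Leaving out each mouse gave -0.22 to -0.11 for Crh, -0.21 to -0.10 for Ucn3 and -0.13 to -0.04 for Crhbp. Probes past adjusted p 0.05 and 1.5-fold numbered 200 (122 higher, 78 lower), against 495 without normalization (51 higher, 444 lower), 88 with signals as given, 81 with the lowest signal subtracted, 97 with an offset of 50, 384 in the deposited log2 values, 7 and 88 on BeadChips 1 and 2, 328 without CON 4 and CON 8, 226 under median scaling (94 higher, 132 lower) and 174 to 253 without each mouse. Probes past adjusted p 0.05 numbered 2231, against 4457 under median scaling, 8574 without normalization, 8 and 195 on BeadChips 1 and 2, and 1834 to 2561 without each mouse. Median scaling gave 10 in place of 5 receptor coupling genes and 0 in place of 1 gene of Crh transcription. Over all 10244 tested genes it gave 350 higher and 2897 lower. Same-numbered mice did not deviate together (r -0.29 to 0.10, 0 of 8 best with their own number), and with the replicate block 1711 probes passed and Crhr2 was -0.41 (adjusted p = 0.0122). Depth of signal limits Crh and Ucn3, at up to 3.61 and 3.68 background SDs, and also Crhr2 in LUN mice. The LUN medians were 1.87 background SDs for Crh, 1.78 for Ucn3 and 1.88 for Crhr2, and Crhr2 was detected on 4 of 8 LUN arrays. An offset of 50 lowered the Crhr2 difference to -0.21.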
